A study of Nematostella vectensis with 96 samples.

Results

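The 60 genes described here are those that cycled most clearly with a daytime peak when animals of the starlet sea anemone *Nematostella vectensis* were kept under blue or green light. They were picked from measured values. Over the blue and green libraries as 1 set, the log2 of CPM + 5 (CPM, the count of a gene scaled to a common library total) was fitted by a light condition term and a cosine and sine with a period of 24 h, and the 60 genes with the largest F for the pair were kept among those with a fitted peak from ZT0 to before ZT12. ZT is Zeitgeber time in hours, with lights on at ZT0 and off at ZT12. Of the 23927 gene models counted, 4332 had a mean of 10 or more counts and entered this ranking, and 2603 of them had a daytime peak after 6 candidate clock genes were set aside by the rule. The cycle of these genes in blue and green light is therefore a description, and the tests concern red light and constant darkness. The ranking did not use the libraries of red light and constant darkness. The limit on the mean count did, since that mean was taken over the libraries of all light conditions.

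Whole adult animals from a laboratory-bred population were kept for a month under red light, green light or blue light for 12 h of each day, or in constant darkness (DD), and were starved before sampling. One library was made from each animal, with 4 animals for each light condition at ZT2, ZT6, ZT10, ZT14, ZT18 and ZT22. The labels name no mutation or drug in any group, and the 4 conditions were sampled at the same hours. In whole animals, fewer cells that use a gene and less of its RNA per cell cannot be told apart.

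In a light-dark cycle, animals raise and lower many transcripts once a day. Part of this comes directly from light and part from a circadian clock, an internal oscillator built on transcription factors such as Clock and the PAR-bZIP proteins, together with light-sensitive cryptochromes. Rhythms that need the light cycle fade in constant darkness, while rhythms driven by a clock can go on for some time. The sea anemone has no eyes but carries opsins and cryptochromes, and is known to be active mainly at night.

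The 93 libraries used held between 104048 and 706046 counts, with a median of 344755. Of 96 libraries, 3 fell short of 100000 counts and were not used, red ZT6 replicate C (1455 counts), DD ZT6 replicate D (25683) and DD ZT22 replicate C (289), which leaves 3 animals in each of those groups. By day (ZT2, ZT6 and ZT10) and night (ZT14, ZT18 and ZT22), the median totals were 367498 and 287379 counts for blue light, 414075 and 344343 for green light, 428503 and 398497 for red light, and 369792 and 304885 for DD. The day libraries were thus deeper at the median in each condition. Depth also changed with the hour. In green light the totals ran from 486237 to 565677 counts at ZT2 and from 483245 to 706046 at ZT22. They ran from 272927 to 335178 at ZT10 and from 269656 to 344772 at ZT14. In DD they were 500282 to 512509 at ZT22 and 240009 to 371518 at ZT14. In blue light these 2 hours overlapped, with 280593 to 344755 and 111676 to 364362. Animals of the same group differed by more than sampling noise in their counts (chi-square over its degrees of freedom, median over pairs 5.04).

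In blue and green light, the F of the 60 genes ran from 14.8 to 6.34, and their fitted amplitude, the height of the cosine above its mean, from 0.19 to 0.66 on the log2 scale. Most peaked in the first part of the day. There were 38 genes with a fitted peak from ZT0 to before ZT4, 21 from ZT4 to before ZT8 and 1 from ZT8 to before ZT12. The last inside the list was NVE23569 with an F of 6.3448, and the first outside it was NVE8668, an uncharacterized protein, with 6.3335. The mean count of the members per library ran from 10.1 to 1720, with a median of 20.5, so most rest on few reads in each animal. A name was given for 24 of the 60 in the study's lists of genes, which were drawn up on these same samples, 3 were listed as uncharacterized and 33 were not listed.

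Fitted within each color alone, the cycle was of larger amplitude in blue than in green light for 41 of the 60 genes and of larger amplitude in green for 19. The fitted peaks in blue and green lay at most 3 h apart for 55 genes. The average of the 60 genes, each centred on its own mean log2(CPM + 5), reached 0.31 ± 0.05 at ZT2 and 0.40 ± 0.08 at ZT6 in blue light (SD, n = 4 each) and was lowest at ZT14, at -0.37 ± 0.40. In green light it was 0.32 ± 0.09 at ZT2 and 0.26 ± 0.18 at ZT6 and was lowest at ZT18, at -0.29 ± 0.28. At ZT10, with the light still on, the average was down to -0.15 ± 0.38 in blue and -0.02 ± 0.13 in green light. The blue value rested on replicate D at -0.72 (104048 counts), with A, B and C at 0.01, 0.02 and 0.09. At ZT14 in blue light, B and D were at -0.88 and -0.49 (111676 and 139670 counts), and A and C at 0.002 and -0.11. In red light the average was 0.35 ± 0.08 at ZT6 (n = 3) and -0.17 ± 0.04 at ZT18 (n = 4), and in DD 0.21 ± 0.13 at ZT6 (n = 3) and -0.13 ± 0.13 at ZT18 (n = 4). By day and night it averaged 0.07 and -0.09 in red light and 0.05 and -0.09 in DD, against 0.19 and -0.18 in blue and 0.19 and -0.14 in green light.

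**Figure D1:**
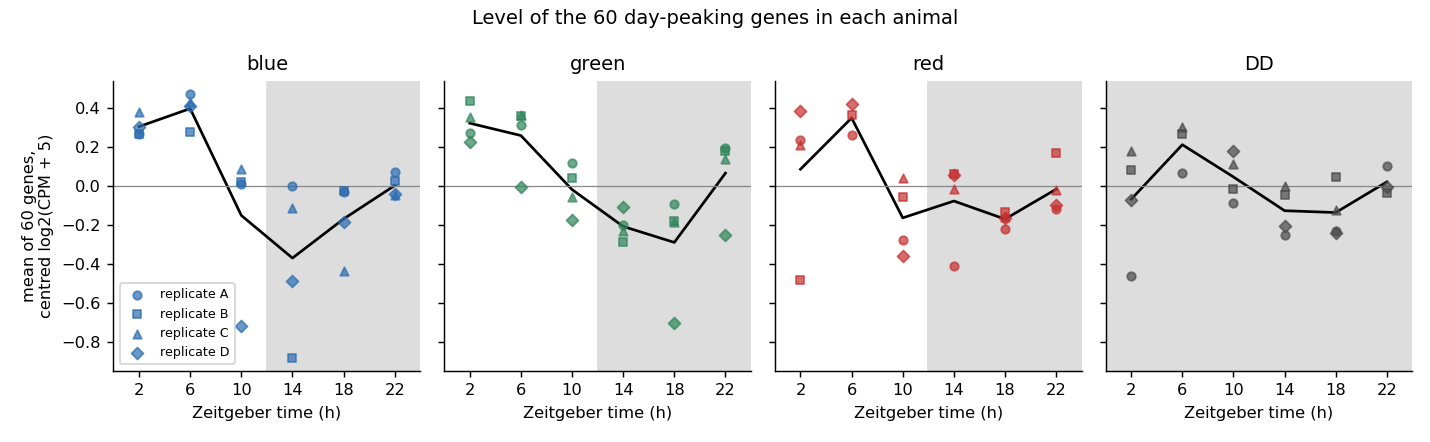
Average centred log2(CPM + 5) of the 60 genes (vertical axis) against Zeitgeber time in hours (horizontal axis) in blue, green and red light and in DD; each point is 1 library, its shape gives the replicate letter, the line joins the means of a time point, and grey marks hours of darkness. The ZT6 means are 0.40 (blue), 0.26 (green), 0.35 (red) and 0.21 (DD), and single libraries fall as low as -0.88.

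This average moved with sequencing depth. The 5 libraries with the lowest average held 104048 to 234925 counts, and the 5 with the highest held 324597 to 632353. In blue light the average was 0.22 in the libraries above the median total of that condition and -0.21 in the others, and in green light 0.20 and -0.16. The deeper libraries were 8 day and 4 night ones for blue and 7 and 5 for green. Depth and time of day were thus mixed. Among day libraries alone, the deeper and shallower averaged 0.32 and -0.09 for blue and 0.33 and -0.01 for green. Among night libraries they averaged 0.02 and -0.27 for blue and 0.02 and -0.26 for green. In red light the day minus night difference was 0.36 in the deeper libraries and -0.11 in the shallower ones, and in DD 0.18 and 0.01. Over the 4332 genes the same differences were 0.07 and -0.19 in red light and 0.02 and 0.03 in DD. Over these genes, the deeper and shallower libraries averaged 0.04 and -0.19 for blue and 0.12 and -0.02 for green. The shallower day libraries were mostly those of ZT10 in blue, green and red light. The deeper night libraries in green light were mostly those of ZT22. Depth and hour can thus not be told apart within day or night by these splits. The day minus night difference of the 60 genes was also taken after thinning to 100000 counts. It was then 0.36 (blue), 0.31 (green), 0.18 (red) and 0.11 (DD). Without thinning it was 0.36, 0.33, 0.15 and 0.14. With the log2 of the library total as a term in the ranking fit, 16 of the 60 genes were picked again, and with all libraries thinned to 100000 counts, 19 were. Only 5 were picked under both, *CCR4-NOT subunit 3* (NVE7601), *DEK oncogene* (NVE3943), *calumenin-B* (NVE13427), NVE18989 and the uncharacterized NVE20114. The part of depth in the cycle of the 60 genes was not tested beyond these values.

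In red light, 2 of the 60 genes were higher by day past a 10% false discovery rate (FDR), beside 4 of all 9597 genes tested (percent called 0.0417), and 0 of the 60 were lower (percent called 0.0938). They were *L-asparaginase* (NVE2618) and *CCR4-NOT subunit 3* (NVE7601). The counts were tested with edgeR's quasi-likelihood F test on the mean of ZT2, ZT6 and ZT10 minus the mean of ZT14, ZT18 and ZT22, two-sided, and p-values were adjusted by Benjamini and Hochberg's method over the genes averaging 3 or more counts. At an unadjusted p under 0.05, 11 of the 60 were higher by day (18.3%) and 0 lower, beside 4.61% higher and 5.05% lower over all genes. Among the 4332 genes that were ranked, these shares were 5.45% and 6.65%. The log2 change was above 0 for 42 of the 60 (70%), beside 51% of all genes tested, and its median was 0.17 over the 60 genes and 0.01 over all genes. With the log2 of the library total in the fit, 2 genes were called, 41 were above 0 and 11 were higher at an unadjusted p under 0.05. Red ZT2 replicate B had the lowest average in red light, -0.48 over the 60 genes, with 234925 counts. Without it 2 genes were called, 46 were above 0 and 14 were higher at an unadjusted p under 0.05. These were the highest of 27 settings that left out a library or a letter. Over those settings the counts ran from 0 to 2, from 39 to 46 and from 9 to 14.

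In DD, 0 of the 60 genes passed 10% FDR between subjective day and night, and 0 of all genes did (percent called 0). At an unadjusted p under 0.05, 3 of the 60 were higher by day (5%) and 1 lower, beside 3.75% and 4.04% of all genes, so that these shares were near those of all genes. DESeq2 called 11 genes over the whole table and 0 of the 60. The log2 change was above 0 for 42 of the 60, beside 50.2% of all genes, with a median of 0.13 over the 60 and 0.00 over all genes. With the library total in the fit, 33 were above 0. DD ZT2 replicate A had an average of -0.46, and without it 43 were above 0 and 3 higher at an unadjusted p under 0.05.

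**Figure D2:**
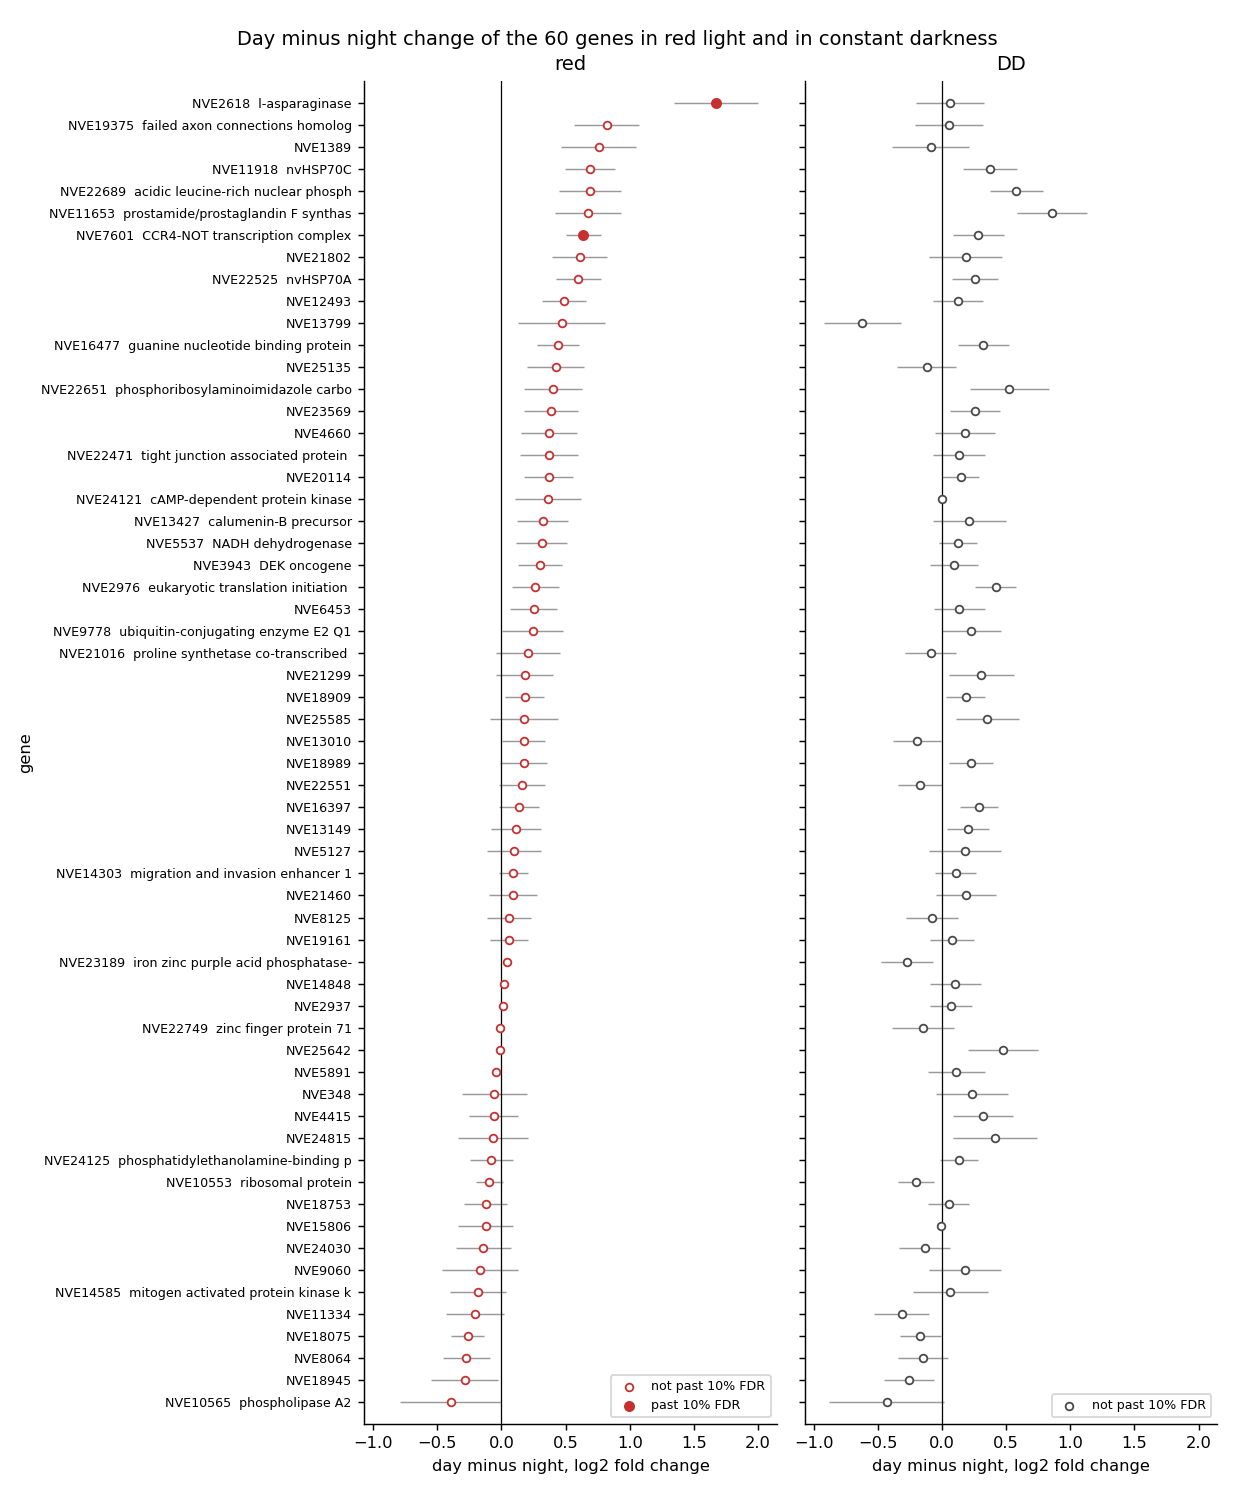
Day minus night log2 fold change (horizontal axis) of each of the 60 genes (rows, ordered by the change in red light) in red light (left) and DD (right); points are edgeR estimates, bars their standard errors (not drawn for changes within 0.05 of 0, where the error is poorly determined), and filled points are past 10% FDR. In red light 42 points lie above 0 and 2 are filled, and in DD 42 lie above 0 and 0 are filled.

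*L-asparaginase* (NVE2618), an enzyme that splits asparagine into aspartate and ammonia, had the largest change of the 60 genes in red light. At ZT2 the 4 red animals held 98.6, 331, 383 and 328 CPM, at ZT6 the 3 animals 81.5, 369.5 and 515 CPM, and at ZT10 they held 54.4, 195, 162 and 354 CPM. At night the values were 60.1, 174, 60.4 and 85.5 CPM at ZT14, 41.3, 79.9, 38.0 and 112.2 CPM at ZT18, and 41.0, 119.5, 77.4 and 86.1 CPM at ZT22. The letters A to D run in this order, with C missing at ZT6. Replicate A was the lowest animal at each of the day times, and the day and night ranges overlapped. The day libraries ran from 54.4 to 515 CPM with a median of 328, and the night libraries from 38.0 to 174 with a median of 78.6. The fitted log2 fold change by day was 1.67 (standard error, SE, 0.33, adjusted p = 0.0319, edgeR). Over 37 alternatives the log2 fold change ran from 1.42 to 1.89 and 33 kept the call. Without red ZT6 replicate D the adjusted p was 0.117, and without replicates B, C or D of all time points it was 0.177, 0.420 and 0.582.

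In DD the same gene showed no such pattern. Its means at ZT2, ZT6, ZT10, ZT14, ZT18 and ZT22 were 229 ± 78.8, 219 ± 92.7, 254 ± 122.2, 216 ± 104.3, 223 ± 85.8 and 231 ± 76.9 CPM (SD, n = 4, 3, 4, 4, 4 and 3) for *L-asparaginase* (NVE2618). The day minus night log2 change was 0.06 (SE 0.27, adjusted p = 0.988, edgeR). Set against DD, the change in red light was larger by 1.604 on the log2 scale (SE 0.44, unadjusted p = 0.000771, adjusted p = 0.672, edgeR), which did not pass 10% FDR. Without replicate A it was 1.76 with an adjusted p of 0.00771 for *L-asparaginase* (NVE2618). Over 14 alternatives the difference ran from 1.39 to 1.76 and passed 10% FDR in 2. The highest adjusted p was 0.9999, without replicate D (edgeR). For this difference 0 of the 60 genes and 0 of all genes passed (percent called 0), and DESeq2 called 1 gene in all. At an unadjusted p under 0.05, 3 of the 60 had a higher change in red light and 0 a lower one, beside 2.78% and 2.42% of all genes.

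The level of *L-asparaginase* also differed between replicate letters. In green light replicate D was the lowest library at 6 of 6 time points, with a mean of 76.6 CPM by day and 44.1 CPM by night, where the other letters had means of 297 to 334 CPM by day and 169 to 207 CPM by night. In DD replicate A was the lowest at 6 of 6 time points, with 108.1 CPM by day and 111.4 CPM by night. In red light replicate A was the lowest at 5 of 6, with 78.2 CPM by day and 47.5 CPM by night. In blue light no letter was the lowest at more than 3 time points. The mean by day was above the mean by night for each of the 4 letters in blue, green and red light and for C and D in DD. The labels do not say what libraries with the same letter share, and each came from its own animal.

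*CCR4-NOT subunit 3* (NVE7601) belongs to a complex that shortens the poly(A) tails of mRNAs. In red light the day libraries ran from 242 to 541 CPM with a median of 390.3, and the night libraries from 171 to 372 with a median of 233, so that the ranges overlapped. Its means in red light were 415 ± 86.1, 455 ± 53.6 and 322 ± 63.2 CPM at ZT2, ZT6 and ZT10 and 279 ± 85.6, 244 ± 55.2 and 234 ± 22.6 CPM at ZT14, ZT18 and ZT22 (SD, n = 3 at ZT6 and 4 elsewhere). By day it was higher by a log2 fold change of 0.64 (SE 0.14, adjusted p = 0.0933, edgeR). This call was close to the threshold: over 37 alternatives it held in 11, with adjusted p from 0.00111 to 0.563 and a log2 fold change from 0.56 to 0.71. In DD the day libraries of *CCR4-NOT subunit 3* ran from 291 to 1170 CPM with a median of 419, and the night libraries from 222 to 529 with a median of 371. The value of 1170 CPM came from DD ZT2 replicate A, the shallowest DD library used, with 138366 counts. The log2 change in DD was 0.28 (SE 0.20, adjusted p = 0.786), and the difference of the 2 changes, 0.35 (SE 0.24), had an adjusted p of 0.996.

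**Figure D3:**
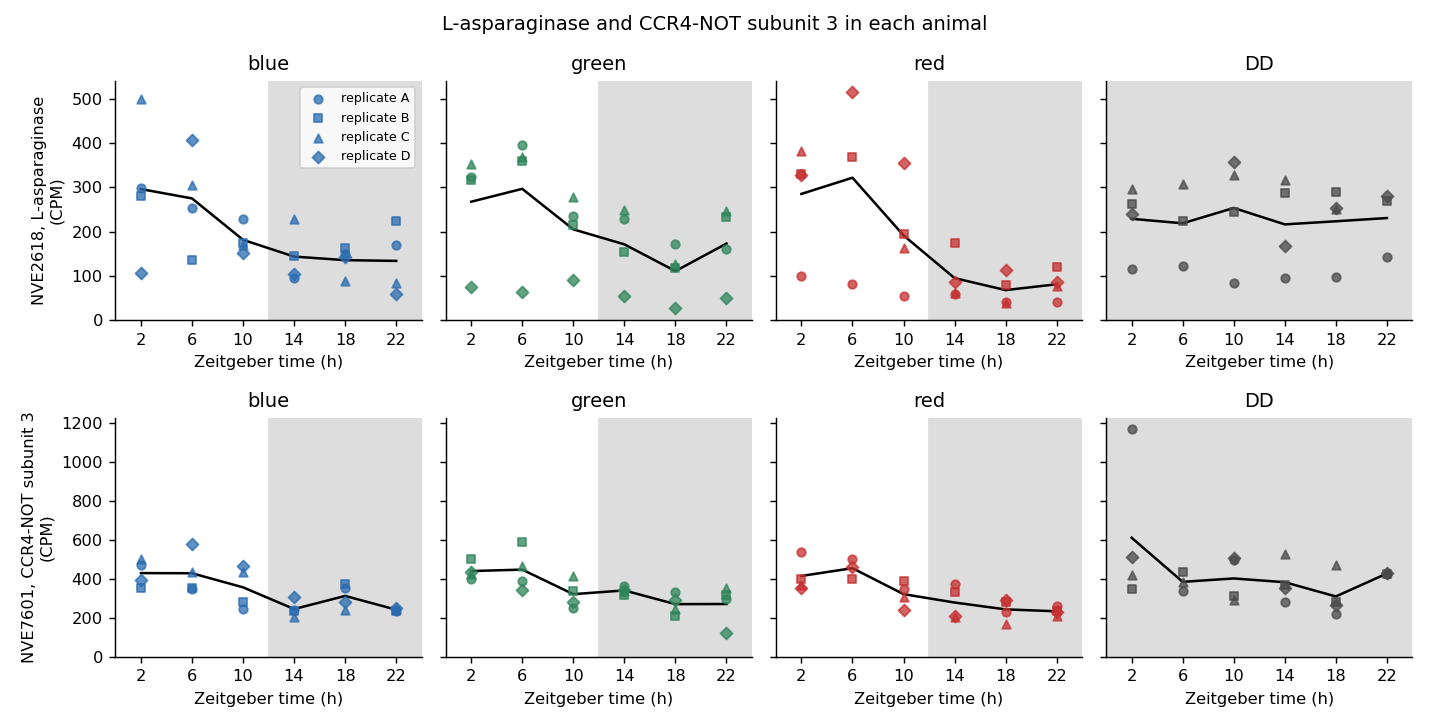
Level in CPM (vertical axis, from 0) of *L-asparaginase* (top) and *CCR4-NOT subunit 3* (bottom) against Zeitgeber time in hours in blue, green and red light and in DD; each point is 1 library with its shape giving the replicate letter, lines join time point means, and grey marks darkness. For *L-asparaginase* the means in red light are 322 CPM at ZT6 and 67.8 CPM at ZT18, and in DD 219 and 223 CPM.

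Of the chaperones, which help proteins fold, *nvHSP70C* (NVE11918) and *nvHSP70A* (NVE22525) were members. The first held 47.2 to 156 CPM by day (median 79.5) and 23.5 to 90.7 CPM by night (median 52.8) in red light. Its log2 change was 0.69 in red light (SE 0.20, unadjusted p = 0.00169, adjusted p = 0.242) and 0.37 in DD (SE 0.21, adjusted p = 0.706). *nvHSP70A* held 201 to 540.3 CPM by day (median 279) and 113.9 to 297 CPM by night (median 221) in red light, a log2 change of 0.60 (SE 0.18, unadjusted p = 0.00231, adjusted p = 0.264), and its change in DD was 0.26 (SE 0.18, adjusted p = 0.776). The study's lists also give the name *nvHSP70A* to another gene model, so the name is uncertain. Of 22 chaperone and stress genes tested by annotation word, 18 were above 0 in red light and 17 in DD, beside 51% and 50.2% of all genes, with medians of 0.28 and 0.18, and 0 passed 10% FDR in either. The annotations come from the study's lists, drawn up on these samples, so these counts are not independent evidence of a direction.

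Of the genes of signaling and lipid mediators, 4 named members are described. *Prostaglandin F synthase* (NVE11653), which reduces prostaglandin precursors, held 18.1 to 108.7 CPM by day and 15.0 to 61.7 CPM by night in red light. Its log2 change was 0.67 in red light (SE 0.26, adjusted p = 0.398) and 0.86 in DD (SE 0.27, unadjusted p = 0.00451, adjusted p = 0.443), the highest of the 60 genes in DD. *Guanine nucleotide binding protein* (NVE16477), a class of proteins that relay receptor signals, had a log2 value of 0.44 in red light (SE 0.16, adjusted p = 0.380) and 0.32 in DD (SE 0.20, adjusted p = 0.732), neither past the threshold. For *cAMP-dependent protein kinase* (NVE24121), an enzyme switched on by cyclic AMP, the log2 values were 0.36 in red light and -0.00049 in DD. *MAP3K2* (NVE14585), the top kinase of a signaling cascade, had -0.18 and 0.06.

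Of the nuclear, translation and metabolic genes, the nuclear phosphoprotein *ANP32* (NVE22689) was at 0.69 in red light (SE 0.24, adjusted p = 0.353) and 0.58 in DD (SE 0.21, unadjusted p = 0.00962, adjusted p = 0.499). It had 33.5 to 151 CPM by day against 15.6 to 61.4 by night in red light, and 22.002 to 79.5 CPM against 19.2 to 46.2 in DD. *Translation initiation factor 3 subunit I* (NVE2976) had a log2 value of 0.26 in red light and 0.42 in DD (unadjusted p = 0.0154, adjusted p = 0.546). *DEK oncogene* (NVE3943), which codes for a chromatin protein, had 0.30 and 0.09, and *calumenin-B* (NVE13427), a calcium-binding protein of the secretory pathway, 0.32 and 0.21. The *proline synthetase co-transcribed homolog* (NVE21016) had 0.21 and -0.09. *PAICS* (NVE22651), an enzyme of purine synthesis listed under its full name, had 0.40 and 0.53, and the respiratory complex I subunit NVE5537 had 0.31 and 0.12. The *ribosomal protein* NVE10553, the second most abundant of the 60 with a mean count of 562, had -0.09 in red light and -0.20 in DD. None of these passed 10% FDR.

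The 5 highest log2 values in red light were those of *L-asparaginase*, *failed axon connections homolog* (NVE19375), NVE1389, *nvHSP70C* and *ANP32*. The gene NVE19375, whose homolog is known from axon growth in *Drosophila*, was at 0.82 (SE 0.25, unadjusted p = 0.00351, adjusted p = 0.296). It held 29.0 to 196 CPM by day and 28.3 to 50.4 CPM by night in red light, and its log2 change in DD was 0.05. NVE1389, with no annotation, was at 0.76 in red light (SE 0.29) and -0.09 in DD. The 5 lowest in red light were *phospholipase A2 group XV* (NVE10565) at -0.40, NVE18945 at -0.29, NVE8064 at -0.27, NVE18075 at -0.26 and NVE11334 at -0.21, with adjusted p from 0.527 to 0.808.

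In DD, the highest after *prostaglandin F synthase* and *ANP32* were NVE22651 (0.53), NVE25642 (0.48) and NVE2976 (0.42). The lowest were NVE13799 at -0.62 (SE 0.30, unadjusted p = 0.0492, adjusted p = 0.638), NVE10565 at -0.43, NVE11334 at -0.31, *purple acid phosphatase* (NVE23189) at -0.27 and NVE18945 at -0.25. NVE13799, with no annotation, had the largest amplitude in blue and green light, 0.66. In red light it held 29.0 to 440.2 CPM by day (median 165) and 30.0 to 277 CPM by night (median 135.9), and in DD 89.97 to 245 CPM by day (median 124.8) and 37.8 to 382 CPM by night (median 205). The red light change exceeded the DD change by 1.09 (unadjusted p = 0.0285, adjusted p = 0.959).

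Of the 12 genes with the largest F in blue and green light, *CCR4-NOT subunit 3*, second by F, was the only one called in red light. NVE16397, with no annotation and the largest F, ran from 48.9 to 155 CPM by day (median 100.4) and 70.5 to 114.8 CPM by night (median 89.3) in red light, a log2 change of 0.14 (SE 0.15, adjusted p = 0.815). In DD it was at 0.29 (SE 0.15, adjusted p = 0.670). *Tight junction associated protein 1* (NVE22471), next by F and peaking near ZT0 (fitted peak ZT 0.48), had 0.37 in red light and 0.13 in DD. Of the others, NVE21460, NVE18989, NVE20114, NVE18909 and NVE2937 had log2 values from 0.01 to 0.37 in red light and from 0.07 to 0.23 in DD, and NVE15806 and NVE18945 were below 0 in both.

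A test of the 24-h cosine and sine pair, which does not fix the peak time, called 0 of the 60 genes in red light (percent called 0.0417 of all genes) and 0 in DD (percent called 0.0104). At an unadjusted p under 0.05 there were 12 of the 60 in red light (20%), beside 7.01% of all genes, and 4 in DD (6.67%), beside 7.27%. DESeq2 called 2 of the 60 in red light and 0 in DD. In red light the smallest p values were those of *L-asparaginase* (0.000149, adjusted p = 0.158), *CCR4-NOT subunit 3* (0.000455), *nvHSP70A* (0.00302) and *nvHSP70C* (0.00412). A 12-h pair called 0 of the 60 in red light and 0 in DD (percent called 0 in both), with 2 and 7 of the 60 at an unadjusted p under 0.05, beside 4.36% and 6.55% of all genes. DESeq2 called 0 in both.

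The fitted peak in red light fell between ZT0 and ZT12 for 45 of the 60 genes (75%), beside 50.2% of the 4332 genes ranked, and in DD for 44 (73.3%), beside 63.6%. It lay at most 3 h from the peak of the same gene in blue and green light for 36 of the 60 in red light (60%) and for 30 in DD (50%), beside 39.8% and 35.8% of the 4332 genes. The part of the 24-h cycle in phase with that gene's own cycle in blue and green light was above 0 for 52 of the 60 in red light and 49 in DD, that is 86.7% and 81.7%, beside 68.5% and 63.7% of the ranked genes. Its median over the 60 was 0.17 on the log2 scale in red light and 0.14 in DD, against 0.07 and 0.06 over the ranked genes, while in blue and green light, where the genes were chosen, it was 0.45 and 0.33. These shares are descriptions with no test, and they rest on the log2(CPM + 5) values that moved with depth.

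By peak time in blue and green light, the values in red light were as follows, given with no test. The 21 genes peaking from ZT4 to before ZT8 had a median day minus night log2 change of 0.32 in red light, with 17 above 0 and 7 higher at an unadjusted p under 0.05. The 38 genes peaking before ZT4 had a median of 0.09, with 24 above 0 and 3 higher, where 5.45% of the ranked genes were higher at that p. In DD the medians were 0.13 and 0.12, with 16 of the 21 and 25 of the 38 above 0, and 0 of the 21 and 3 of the 38 higher, where 3.75% of all genes were. A gene peaking near ZT0 gives a smaller day minus night change at the same amplitude. The median component in phase with each gene's own peak was 0.27 for the later and 0.11 for the earlier genes in red light, and 0.17 and 0.12 in DD. The single late gene, NVE21802, an uncharacterized protein with a fitted peak at ZT 11.4, was the most abundant member. It held 3092 to 14960 CPM by day and 2199 to 4838 CPM by night in red light (log2 change 0.61, SE 0.22, unadjusted p = 0.00938, adjusted p = 0.356), and 1715 to 12762 CPM by day and 1167 to 6476 CPM by night in DD (0.19, adjusted p = 0.922).

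The level over all 6 time points was compared between red light and DD in 1 fit of both conditions. Of the 60 genes, 12 differed past 10% FDR (20%), beside 12.8% of all genes tested (percent called 12.8) and 19.3% of the 4332 ranked, so that the share was near that of genes of like abundance. There were 9 lower in red light than in DD, beside a percent called of 6.34 for lower over all genes, and 3 higher, beside 6.43. At an unadjusted p under 0.05 (edgeR), 20% of the 60 were lower and 15% higher. Among the 4332 ranked genes these shares were 16.5% and 13.4%.

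The 9 genes lower in red light were led by *phosphatidylethanolamine-binding protein* (NVE24125), from a family of kinase regulators, with 45.1 to 142.5 CPM in red light (median 94.5) and 97.5 to 196 CPM in DD (median 132.6). Its log2 difference was -0.63 (SE 0.11, adjusted p = 0.000383, edgeR), and it was called in 14 of 14 alternatives. *Migration and invasion enhancer 1* (NVE14303) held 142.1 to 229 CPM in red light (median 187) and 157 to 369 CPM in DD (median 243), a difference of -0.47 (SE 0.09, adjusted p = 0.00108), also called in 14 of 14. NVE16397 held 48.9 to 155 CPM in red light (median 91.4) and 82.6 to 198 CPM in DD (median 131.35), at -0.45 (SE 0.10, adjusted p = 0.00480). The ranges of these genes overlapped between the conditions. *L-asparaginase* (NVE2618) was at -0.66 (SE 0.22, adjusted p = 0.0538) and *CCR4-NOT subunit 3* (NVE7601) at -0.39 (SE 0.12, adjusted p = 0.0433). NVE13149, NVE20114, NVE2937 and NVE18075 were at -0.36, -0.36, -0.34 and -0.27, with adjusted p from 0.0428 to 0.0775.

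The 3 genes higher in red light were *ubiquitin-conjugating enzyme E2 Q1* (NVE9778), *cAMP-dependent protein kinase* (NVE24121) and *zinc finger protein 71* (NVE22749). The first, of a class that passes ubiquitin on to target proteins, held 12.8 to 56.1 CPM in red light (median 30.7) and 5.81 to 43.0 CPM in DD (median 18.4), a difference of 0.72 (SE 0.16, adjusted p = 0.00548). NVE24121 differed by 0.53 (SE 0.18, adjusted p = 0.0538) and NVE22749 by 0.44 (SE 0.15, adjusted p = 0.0576). With all libraries thinned to 100000 counts, 2 of the 60 genes were called for level, and with any 1 replicate letter left out, 6 or 7 were.

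**Figure D4:**
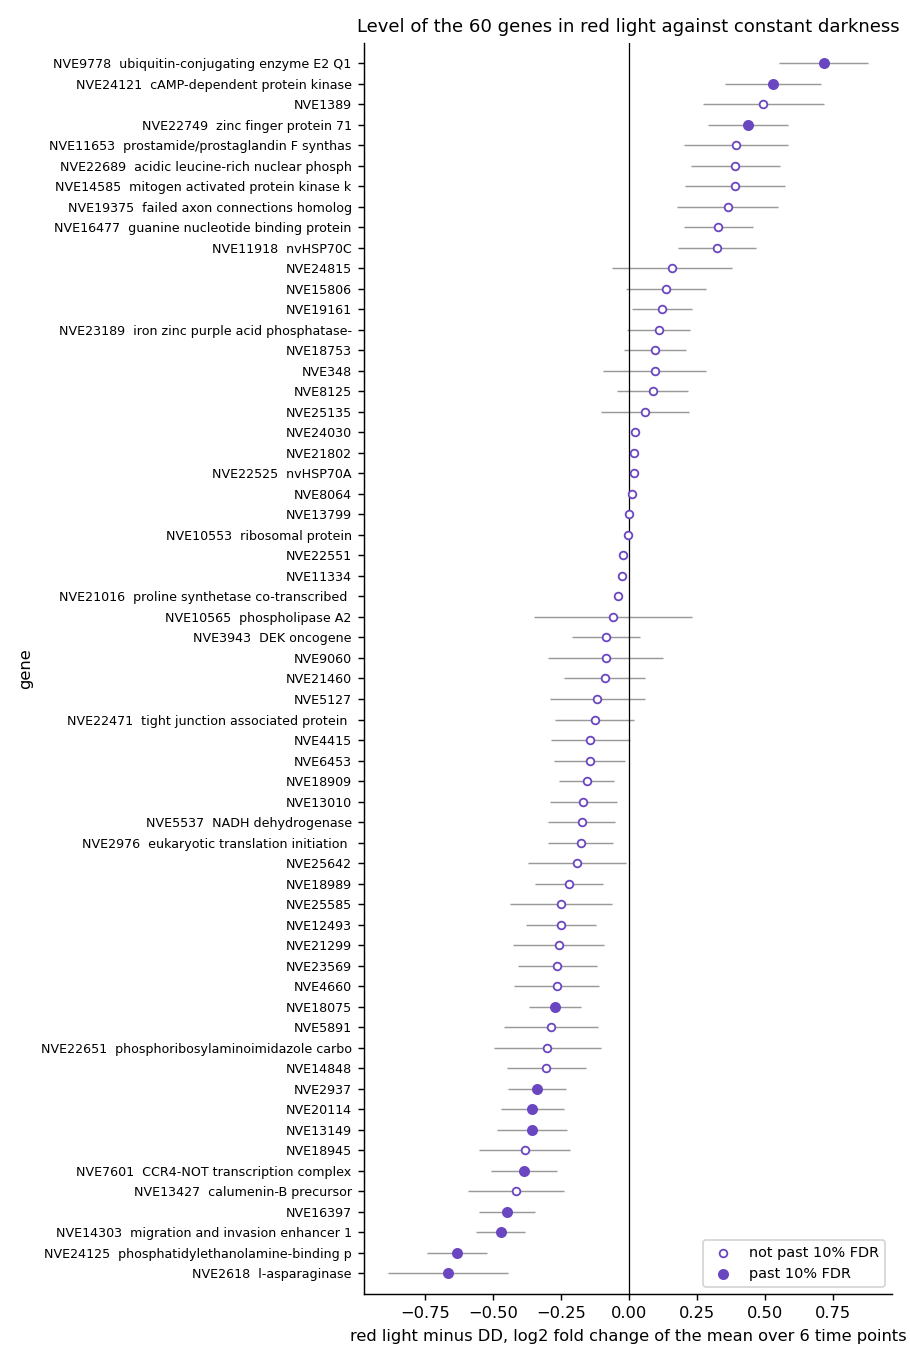
Level in red light minus level in DD, as a log2 fold change of the mean over the 6 time points (horizontal axis), for each of the 60 genes (rows, ordered by value); points are edgeR estimates, bars their standard errors (not drawn within 0.05 of 0), and filled points are past 10% FDR. The 12 filled points are 9 on the lower side, from NVE18075 at -0.27 to NVE2618 at -0.66, and 3 on the higher side, from NVE22749 at 0.44 to NVE9778 at 0.72.

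Set beside all light conditions, some members had their highest mean level in blue light, given here as description because blue and green values chose the genes. *Phospholipase A2 group XV* (NVE10565), a lysosomal enzyme that cleaves membrane lipids, held a mean of 64.9 ± 34.6 CPM in blue light and 30.7 ± 16.6 CPM in green (SD, n = 24 each), against 16.4 ± 12.3 CPM in red light (n = 23) and 15.7 ± 9.97 CPM in DD (n = 22). Blue was highest and green next. The mean count of NVE10565 over the libraries used was only 12.2, close to the limit of 10 set for the ranking. The higher blue and green values helped it past that limit, and its values in red light and DD rest on few counts. Red light and DD differed by less than their spread, and their order was not settled, since the mean CPM was higher in red light while the fitted log2 difference, red light minus DD, was -0.06 (SE 0.29, adjusted p = 0.942). Its means in blue light were 75.01, 110.9 and 76.9 CPM at ZT2, ZT6 and ZT10 and 47.6, 34.7 and 44.5 CPM at ZT14, ZT18 and ZT22, and in red light 12.2, 28.7 and 5.41 CPM and 24.5, 18.1 and 12.5 CPM. The uncharacterized NVE15806 held 116.3 ± 39.9 CPM in blue light, 69.3 ± 25.6 CPM in green, 58.6 ± 22.5 CPM in red and 54.1 ± 18.9 CPM in DD. *Prostaglandin F synthase* (NVE11653) averaged 66.4, 40.4, 37.6 and 28.0 CPM in the same order. Over the 60 genes, the log2 ratio of blue light to DD ran from -0.64 to 2.05 with a median of -0.07, beside -0.01 over all genes tested.

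**Figure D5:**
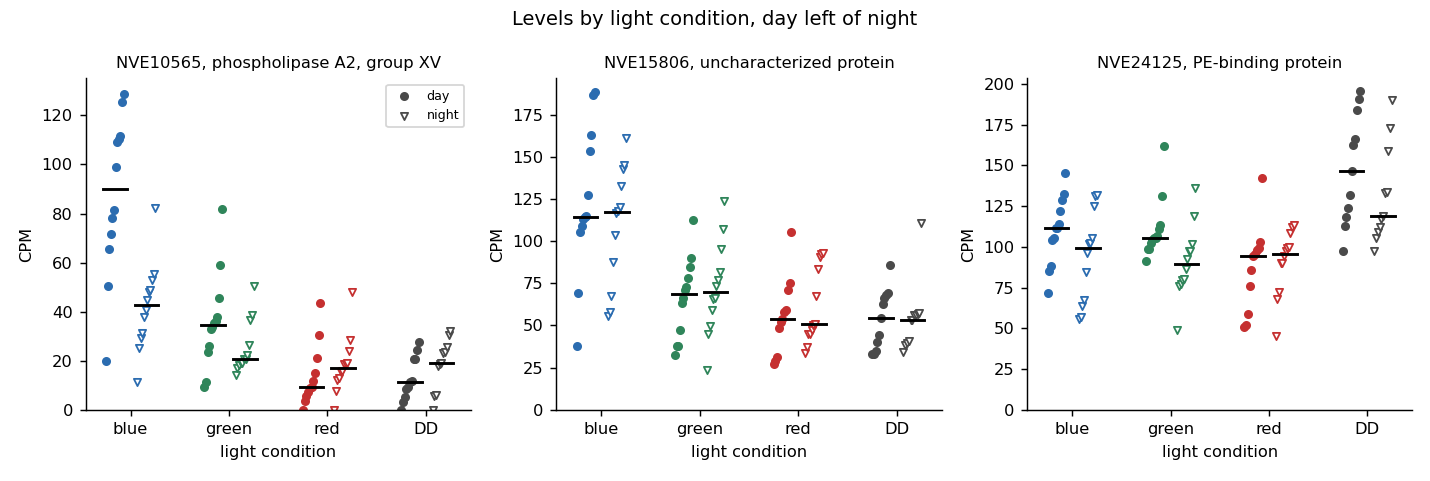
Level in CPM (vertical axis, from 0) of *phospholipase A2 group XV* (NVE10565), the uncharacterized NVE15806 and *phosphatidylethanolamine-binding protein* (NVE24125) in each library of blue, green and red light and DD; filled circles are day libraries, open triangles night libraries, and bars are medians. For NVE10565 the day median is 90.1 CPM in blue light and 9.15 CPM in red light, and NVE24125 has its highest day median, 147 CPM, in DD.

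For comparison, of the 11 candidate clock genes tested, 1 passed 10% FDR in red light, *nvPAR-bZIPa* (NVE14677), a transcription factor gene the rule had set aside, higher by day at a log2 change of 1.47 (SE 0.27, adjusted p = 0.0198). In DD 0 of the 11 passed. At an unadjusted p under 0.05, 4 of the 11 were higher by day in red light and 2 in DD, with 0 lower. Over all genes, 4.61% in red light and 3.75% in DD were higher at that p, and 0.0417% passed 10% FDR as higher in red light. Most of the 11 are on the study's list of differentially expressed genes of interest, drawn up on these same samples. Their counts are thus not independent evidence of a direction. In level between red light and DD, 1 of the 11 was higher, *nvCiPC* (NVE4116, adjusted p = 0.0787, edgeR), beside 6.43% of all genes. Of the word groups other than chaperones, the members held 2 of 58 translation genes, 1 of 33 respiration genes, which is also 1 of the 38 redox genes, and 1 of 65 proteolysis genes. None of the 67 cytoskeleton, 20 chromatin or 17 transport genes found by annotation word was a member. The chromatin words were histone and chromo, which do not match *DEK oncogene*. No clock and light gene was a member, and the rule had set 6 candidates aside. There were 24 named members beside 1362 genes tested with a name, so groups this small can hold 0 members without meaning. These counts carry no test. Marker words for stinging cells and venom, muscle, gland and egg matched 5, 14, 8 and 2 genes tested, of which 0 were members and 0 passed 10% FDR between day and night in red light or DD.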

How the data were processed

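Whole adult anemones were profiled by tag-based sequencing of the 3′ ends of mRNAs. The values are raw counts per gene deposited by the authors, who used the FastX-toolkit to trim reads and Bowtie2 to place them on a transcriptome of this species, kept reads of single genes and removed PCR duplicates. Samples were grouped by the light condition and time point of their labels, with the hours taken from the study's methods. The members and lists were chosen with earlier results of these data known. Libraries of at least 100000 counts were kept. The 9597 genes averaging 3 or more counts were tested with edgeR 4.0.16 in R 4.3.3 (TMM, quasi-likelihood F test, Benjamini-Hochberg adjustment, 10% FDR), one fit of the 6 time points for red light, one for DD and one for both. CPM for the ranking, the fitted peaks and the average of the members used column sums. The CPM levels given for single genes used column sums scaled by the TMM factors. Other fits used DESeq2 1.42.0. Standard errors were derived from the F statistic. With 9597 genes simulated for the day minus night test in red light, 83% of log2 changes of 1 and 99% of changes of 2 were recovered, with 10 false calls. The simulation changed 100 genes at each size, all averaging 10 or more counts in red light. The data gave 13 calls, and many true changes make the adjusted threshold easier to pass. These shares may therefore be too high for the data. Precision is limited by the counts per library.

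The genes named were the 12 with the largest F, those with a name in the study's lists, those past 10% FDR, the 5 highest and 5 lowest in red light and in DD, the genes ranked 60 and 61, and candidate clock genes past a test; others were chosen after their values were seen. Gene names came from the study's lists, and no sequence or coordinate was used. Alternatives were other library limits, no filter, a minimum mean count of 10, RLE normalization, column sums only, DESeq2, a replicate block, thinning to 100000 counts and leaving out replicates. After seeing the data, a library total term in the tests and a limit of 200000 counts per library for the choice of members were added. Whether libraries of a group came from separate cultures is not stated, so the p-values measure the spread between these animals.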

Additional observations from a re-analysis of the deposited data

Results flagged for a closer look

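In groups of 4 libraries, 14 of 147 sets of values had 1 library far from the other 3. Independent, normally distributed values would give about 1 in 20. The sets reuse the same libraries, so no excess over that rate can be read from them. In the average of the 60 genes, blue ZT10 replicate D was at -0.72 (others 0.01 to 0.09), green ZT6 replicate D at -0.00296 (others 0.32 to 0.37), green ZT18 replicate D at -0.70 (others -0.18 to -0.09), green ZT22 replicate D at -0.25 (others 0.14 to 0.20) and red ZT14 replicate A at -0.41 (others -0.01 to 0.06). Their totals were 104048, 250830, 196334, 483245 and 275847 counts.

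*L-asparaginase* (NVE2618) was at 75.2 CPM in green ZT2 replicate D (others 317.7 to 353.7) and 63.6 CPM in green ZT6 replicate D (others 359.3 to 395.6). NVE13799 was at 604.4 CPM in green ZT6 replicate D (others 248.2 to 280.4), 324.1 CPM in green ZT14 replicate D (others 121.7 to 151.3) and 402.4 CPM in green ZT18 replicate C (others 79.7 to 97.7). *nvHSP70A* (NVE22525) was at 199.2 CPM in green ZT2 replicate D (others 260.9 to 267), 383.9 CPM in green ZT22 replicate B (others 193.3 to 219.5) and 494.5 CPM in red ZT2 replicate B (others 210 to 247.1). *nvHSP70C* (NVE11918) was at 27.3 CPM in green ZT22 replicate D (others 49.4 to 53.2).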

How the results depend on the processing

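In red light, 1 member in place of 2 was called with all 96 libraries, with no filter on low counts, with column sums only and after thinning, and between 0 and 2 when libraries or letters were left out; the count above 0 ran from 39 to 46 and that higher at an unadjusted p under 0.05 from 9 to 14. In DD, 5 in place of 3 were higher at an unadjusted p under 0.05 with no filter and with column sums only, and 2 to 5 with libraries left out (5 without DD ZT10 replicate B). The level between red light and DD gave 5 calls in place of 12 with no filter, 2 after thinning and 6 to 7 without a letter. The 24-h pair in red light gave 1 call in place of 0 with all 96 libraries, no filter, a minimum mean count of 10 or the replicate block, 2 with DESeq2, and 0 to 1 with libraries left out; in DD it gave 0 to 1 (1 without DD ZT2 replicate A or without letter A). The members picked again were 35 at a minimum mean count of 3, 34 with libraries of at least 200000 counts, 19 after thinning, 16 with the library total in the fit, and 23 to 35 without a letter. The causes were not tested.

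The labels do not say that a replicate letter marks a shared origin, and the letters were not taken as pairs because same-letter correlations of deviations ran from -0.210 to 0.217 in red light and from -0.273 to 0.325 in DD. The data hint at shared letters in part: 14 of 23 red, 15 of 24 green, 8 of 24 blue and 6 of 22 DD libraries correlated best with their own letter. The median same-letter correlation was 0.062 in red and 0.075 in green light, beside -0.023 and -0.025 for other letters. In blue light and DD it was 0.002 and 0.013, beside -0.007 and -0.002. These ranges and medians do not exclude an effect of the letter. With the replicate block, 2 members were called in red light, 0 in DD, 12 for level and 1 for the difference of changes in place of 0 (0 to 1 without a letter), *L-asparaginase* (NVE2618) at 1.51, adjusted p = 0.00877 (edgeR). Over all genes the block gave 25 calls in red light in place of 13 and 7 for the difference of changes in place of 0, and DESeq2 41 and 1.

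Values near 0 changed sign. After thinning, NVE16397 was at -0.22 in red light, and in DD NVE22471 was at -0.11, NVE21460 at -0.35, NVE18909 at -0.018 and NVE2618 at -0.056. With the library total in the fit, NVE22471, NVE21460 and NVE2618 were at -0.027, -0.094 and -0.15 in DD. NVE2618 was at -0.019 with 94 libraries and -0.0097 with 96. The level of NVE10565 was 0.034 with column sums only and 0.49 after thinning. In DD, NVE15806 was at 0.040 with no filter and 0.059 with column sums, and NVE24121 at 0.044, 0.083 and, with the replicate block, 0.037. In red light NVE22749 was at 0.013 with 96 libraries, 0.017 at a minimum mean count of 10, 0.0025 with RLE, 0.0035 with column sums and 0.0008 with DESeq2. Leaving out libraries or letters gave, in red light, -0.057 to 0.28 for NVE21460, -0.27 to 0.079 for NVE15806, -0.002 to 0.36 for NVE18909, -0.049 to 0.097 for NVE2937, -0.015 to 0.26 for NVE13149, -0.21 to 0.055 for NVE24125 and -0.16 to 0.14 for NVE22749. In DD it gave -0.18 to 0.13 for NVE15806, -0.018 to 0.13 for NVE2937, -0.14 to 0.27 for NVE24121, -0.048 to 0.19 for NVE2618 and -0.29 to 0.0081 for NVE22749, and in level -0.21 to 0.13 for NVE21460 and -0.27 to 0.21 for NVE10565.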

Other observations

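Other members also had 1 replicate letter lowest at most time points. *Prostaglandin F synthase* (NVE11653) was lowest in replicate D at 5 of 6 time points in green light and in replicate A at 5 in red light, NVE23189 in replicate D at 6 in blue light, and NVE16477, NVE4660 and NVE8125 in replicate A at 5 in DD.

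The 16 members picked again with the library total in the fit had a median day minus night log2 change of 0.35 in red light, with 14 above 0, and 0.18 in DD, with 13 above 0. The other 44 had 0.10 in red light, with 28 above 0, and 0.12 in DD, with 29 above 0. These values carry no test.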
